A study of Mus musculus with 18 samples.

Results

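The 10 genes described here encode negative feedback regulators of RAS-MAPK signalling. They are the dual specificity phosphatases Dusp1, Dusp2, Dusp4, Dusp5 and Dusp6, the Sprouty genes Spry1, Spry2 and Spry4, and the Spred genes Spred1 and Spred2. They were listed by name for this role, with earlier results of these data known, and are 10 of the 23899 genes in the deposited table. Messenger RNA was measured by poly(A) RNA-seq in mouse leukaemia cells carrying the MLL-AF9 fusion and Cas9, the nuclease that cuts where a guide RNA directs it. Guides were aimed at the jumonji and zinc finger domains of Jmjd1c, a jumonji-family chromatin protein. They are named e21.1, e20.1, e12.4 and e12.3 in the labels. The control cells carried a guide against Renilla luciferase, a sequence the mouse genome lacks, or were labelled mock. Each of the 6 groups had 3 libraries, which gives 12 guide libraries and 6 control libraries, and all cells grew in medium with 10 ng/ml of mouse interleukin-3. The labels do not say which guide cuts which domain, what the mock cells received, or whether libraries came from separate cultures. The p-values therefore cover the spread between libraries, which may be technical.

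RAS passes growth factor and cytokine signals through the kinases RAF and MEK to ERK, which enters the nucleus and switches on early response genes. Several of those genes encode the pathway's own brakes: DUSP phosphatases remove phosphate from ERK and related kinases, Sprouty proteins act upstream of ERK at the membrane, and Spred proteins bring the RAS inactivator neurofibromin to RAS. In myeloid cells the pathway carries signals from the interleukin-3 receptor, and transcripts of several feedback genes are commonly read as a record of recent ERK activity.

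Jmjd1c transcript averaged 64.1 ± 9.24 FPKM in the guide libraries (SD, n = 12), 74.5 ± 2.69 FPKM in mock (SD, n = 3) and 78.3 FPKM in Renilla (range 64.2 to 85.4, n = 3). The log2 fold change of the 4 guides against Renilla was -0.29 with an adjusted p of 0.19 (limma, Benjamini-Hochberg over all genes tested), and transcript level does not report the edit itself. FPKM, fragments per kilobase of transcript scaled to library depth, takes length into account, so levels of different genes can be set side by side. The depth estimated from the steps of low values was 20.6 to 183.5 M reads per library. Mock replicate 1 was deepest, and next came the replicates 3 of e21.1 with 75.3 M and of e12.3 with 67.2 M reads. These replicates 3 also stood apart from the other 2 libraries of their groups in many feedback genes, as given below, so results are also given without them. Myeloid genes marked the cells in every group: Mpo, Ctsg, Prtn3 and the other 7 of 10 markers listed for the leukaemia cells were all measured. Of the stromal and endothelial genes, 5 of 6 averaged under 0.1 FPKM.

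Of the 10 genes, Dusp1, Dusp5 and Dusp6 rose with the 4 guides together against Renilla, and against mock. Dusp2, Spry2, Spred1 and Spred2 were at 2.65 FPKM or more in every library and did not pass the test. Spry1, Dusp4 and Spry4 fell under the filter of a mean of 1 FPKM over the 18 libraries. Thus 3 of the 7 genes tested were called higher at an adjusted p under 0.05 and 0 were called lower, where 7.77% of all 11550 genes tested were called higher and 3.21% lower. The median log2 fold change was 0.04 over the 7 genes and -0.03 over all genes tested. In bulk samples a change in the share of a cell type and a change of RNA per cell cannot be told apart.

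**Figure D1:**
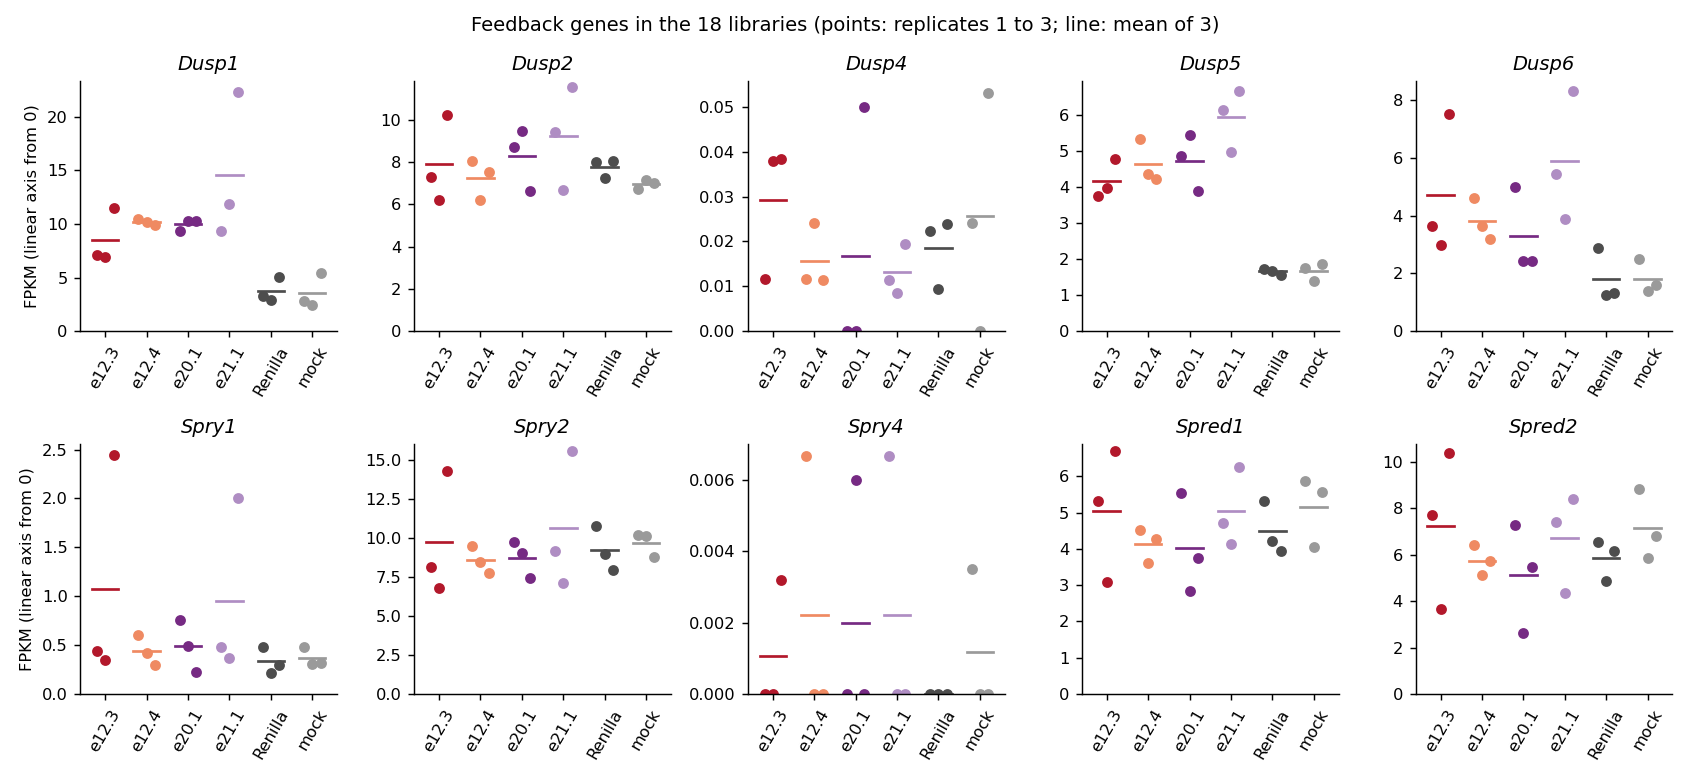
FPKM of the 10 feedback genes in each of the 18 libraries (points, replicates 1 to 3 from left to right in each group) with the mean of 3 as a line, on linear axes that start at 0 and differ between genes. In Dusp1 and Dusp5 all 12 guide libraries lie above all 6 control libraries, while in Spry2, Spred1 and Spred2 the groups overlap.

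Dusp1 (chromosome 17, 26505590 to 26562128, minus strand, GRCm38) encodes a nuclear phosphatase of p38, JNK and ERK and is itself an early response gene. It had 7.13, 6.87 and 11.5 FPKM with e12.3, 10.5, 10.2 and 9.86 FPKM with e12.4, 9.35, 10.3 and 10.3 FPKM with e20.1, and 9.36, 11.9 and 22.3 FPKM with e21.1. It had 3.31, 2.93 and 5.06 FPKM in Renilla and 2.86, 2.42 and 5.41 FPKM in mock. Every guide library was above every control library, and replicate 3 was the highest library of 5 of the 6 groups, all but e12.4. The mean was 10.8 ± 3.92 FPKM with the guides (SD, n = 12) and 3.77 ± 1.14 FPKM in Renilla (SD, n = 3), a ratio of 2.87. Its log2 fold change of FPKM + 1 was 1.28 (SE 0.22, 95% interval 0.80 to 1.75, limma adjusted p = 0.001166). Fold changes on this scale understate those of genes near 1 FPKM. Without the replicates 3 of e12.3 and e21.1 it was 1.14 (adjusted p = 0.0002395).

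Dusp5 (chromosome 19, 53529109 to 53542431, plus strand) encodes a nuclear phosphatase specific for ERK. It had 3.76, 3.97 and 4.77 FPKM with e12.3, 5.33, 4.35 and 4.21 FPKM with e12.4, 4.86, 5.42 and 3.88 FPKM with e20.1, and 6.13, 4.96 and 6.67 FPKM with e21.1. It had 1.74, 1.68 and 1.57 FPKM in Renilla and 1.75, 1.40 and 1.86 FPKM in mock. The 2 ranges were well apart, with the lowest guide library at 3.76 FPKM and the highest control library at 1.86 FPKM. The mean of 4.86 ± 0.909 FPKM with the guides was 2.93 times that of 1.66 ± 0.0866 FPKM in Renilla. Its log2 fold change was 1.12 (SE 0.11, interval 0.89 to 1.36, limma adjusted p = 4.926e-06), and 1.08 without the replicates 3 of e12.3 and e21.1. Dusp5 has a single annotated transcript, and its values stand for an estimated 273 to 1241 reads in the guide libraries and 119 to 160 reads in Renilla.

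Dusp6 (chromosome 10, 99263231 to 99267489, plus strand) encodes the cytoplasmic ERK phosphatase, a widely used readout of the pathway. It had 3.65, 2.99 and 7.50 FPKM with e12.3, 4.6, 3.66 and 3.17 FPKM with e12.4, 5.0, 2.42 and 2.43 FPKM with e20.1, and 5.44, 3.87 and 8.30 FPKM with e21.1. It had 2.86, 1.24 and 1.32 FPKM in Renilla and 2.49, 1.38 and 1.59 FPKM in mock. The ranges overlapped: 10 of 12 guide libraries were above every control library, and replicates 2 and 3 of e20.1 were below Renilla replicate 1. The mean was 4.42 ± 1.88 FPKM with the guides and 1.81 ± 0.912 FPKM in Renilla, a ratio of 2.44. This gave a log2 fold change of 0.92 (SE 0.25, interval 0.38 to 1.46, limma adjusted p = 0.02688). The call was lost without Renilla replicate 2 (adjusted p = 0.145), without Renilla replicate 3 (0.125), without guide e21.1 (0.074) and with no filter on low genes (0.0635). It held without the replicates 3 of e12.3 and e21.1 together, at 0.78 and an adjusted p of 0.01817.

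The promoter sequences of 8 of the 10 genes were read from RefSeq on GRCm38.p6, as the 250 bases before each start. Those of Dusp1, Dusp5 and Dusp6 are printed because these genes rose, and that of Dusp2 as a phosphatase gene that did not pass the test. They read 5′ to 3′ on the gene's strand, and capitals mark matches on either strand to TGACGTCA, to its shorter form TGACG, or to the serum response CArG box. The windows are chr17:26508473-26508722 on the minus strand for Dusp1, chr19:53528895-53529144 on the plus strand for Dusp5, chr10:99262981-99263230 on the plus strand for Dusp6 and chr2:127335909-127336158 on the plus strand for Dusp2. The Dusp1 window lies inside the gene bounds given above. Those bounds are from GENCODE and span 6 annotated transcripts, while the window is set by the RefSeq start.
Dusp1: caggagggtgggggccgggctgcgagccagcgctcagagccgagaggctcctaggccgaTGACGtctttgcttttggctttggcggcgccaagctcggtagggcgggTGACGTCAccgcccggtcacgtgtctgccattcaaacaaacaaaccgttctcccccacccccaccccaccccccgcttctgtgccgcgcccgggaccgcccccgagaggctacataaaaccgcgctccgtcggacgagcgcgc
Dusp5: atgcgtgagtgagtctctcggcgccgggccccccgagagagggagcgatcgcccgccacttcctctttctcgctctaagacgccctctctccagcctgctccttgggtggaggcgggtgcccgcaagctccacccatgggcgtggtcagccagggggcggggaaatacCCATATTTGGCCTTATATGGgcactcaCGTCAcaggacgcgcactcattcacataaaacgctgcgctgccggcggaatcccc
Dusp6: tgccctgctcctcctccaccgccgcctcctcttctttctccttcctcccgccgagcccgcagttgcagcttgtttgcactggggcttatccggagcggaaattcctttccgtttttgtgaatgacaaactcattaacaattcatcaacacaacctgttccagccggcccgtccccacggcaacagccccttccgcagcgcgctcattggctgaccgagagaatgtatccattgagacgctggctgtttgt
Dusp2: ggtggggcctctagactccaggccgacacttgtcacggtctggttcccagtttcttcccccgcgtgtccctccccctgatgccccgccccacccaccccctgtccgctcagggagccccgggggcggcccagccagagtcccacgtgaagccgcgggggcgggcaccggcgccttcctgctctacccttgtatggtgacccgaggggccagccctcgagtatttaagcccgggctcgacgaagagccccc
The Dusp1 window holds the full cyclic AMP response element TGACGTCA from -143 to -136, counted back from the start, and 1 more TGACG from -191 to -187. The full element contains TGACG on both strands. The Dusp5 window holds a pair of adjoining CArG boxes, the element bound by serum response factor, as CCATATTTGG from -82 to -73 and CCTTATATGG from -72 to -63. It also holds TGACG on the minus strand from -55 to -51, and so does Spred2 from -51 to -47. Among 32851 RefSeq promoter windows of the same length, 1.55% held TGACGTCA, 17.77% held TGACG and 1.47% held a CArG box. The 8 windows were 56.0 to 70.8% G or C, where the median of all windows was 52.4%. Shares among windows of like composition were not computed. The AP-1 motif TGANTCA, in 6.75% of windows, and the EGR motif GCGTGGGCG, in 0.54%, were in none of the 8 windows. These matches are descriptions of letters, and the windows of Dusp2, Dusp6, Spry1, Spry2 and Spred1 held none of the 5 motifs. Of the 8 RefSeq starts 7 were found in a GENCODE transcript and that of Spred1 was not, so its window is less certain.

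**Figure D2:**
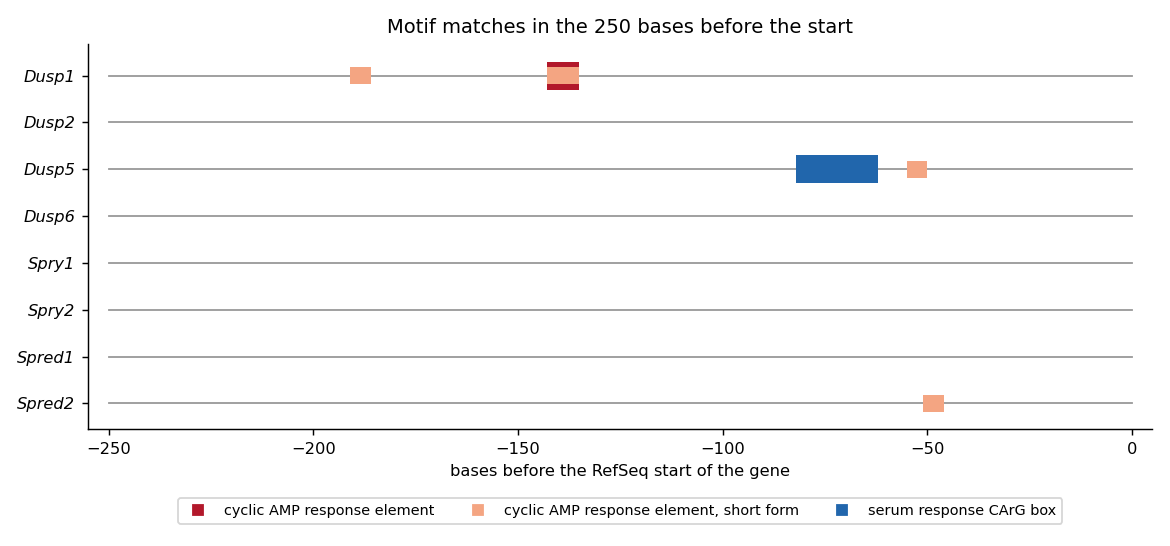
Positions of motif matches in the 250 bases before the RefSeq start of 8 feedback genes, on either strand, with bases before the start on the x axis. Dusp1 carries the full cyclic AMP element at -143, drawn under the short form it contains, and the blue block of Dusp5 is the adjoining pair of CArG boxes.

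Against mock, the other control, the same 3 genes were called higher and 0 lower, where 6.84% of all genes were called higher and 2.16% lower. This comparison shares its guide libraries with that against Renilla, so the values are given side by side only. The log2 fold change against mock was 1.37 for Dusp1 (adjusted p = 0.0007095), 1.12 for Dusp5 (5.575e-06) and 0.89 for Dusp6 (0.03796), by limma. The Dusp6 call was lost here without any 1 of the mock replicates (adjusted p 0.056, 0.21 and 0.18 for replicates 1 to 3), without e12.4 replicate 1 or 2 (0.060 and 0.055) and with no filter (0.087). In mock against Renilla 0 of 11550 genes were called by limma, the background being 0%, with 127 genes at an unadjusted p under 0.05. There the intervals of the log2 fold change ran from -0.69 to 0.51 for Dusp1, -0.29 to 0.30 for Dusp5 and -0.65 to 0.71 for Dusp6.

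**Figure D3:**
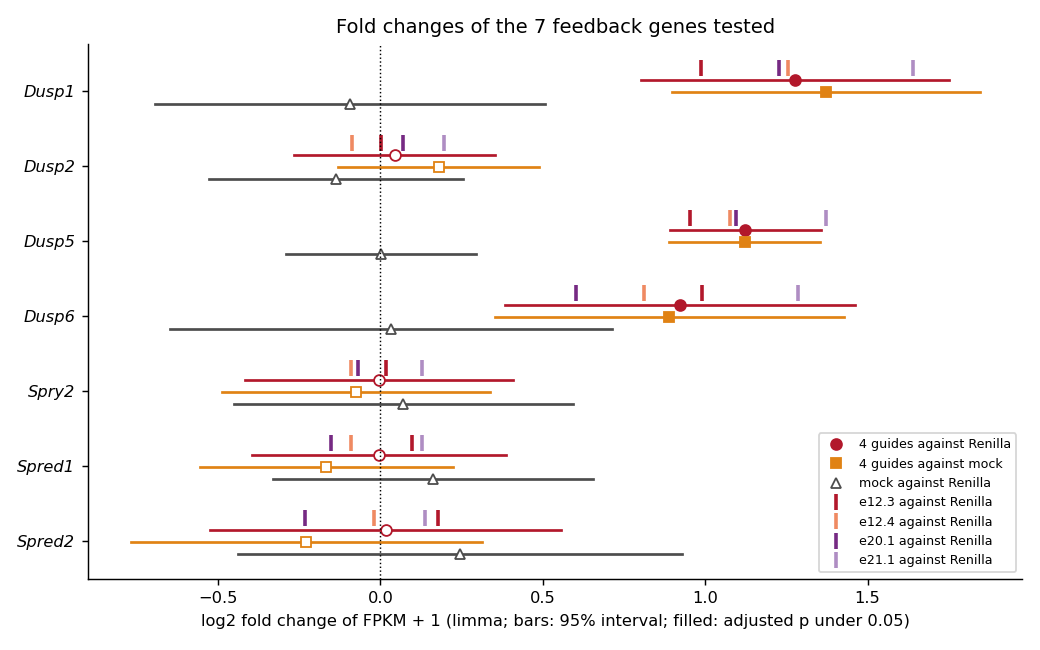
Log2 fold changes of FPKM + 1 of the 7 feedback genes tested, for the 4 guides against Renilla (circles), the 4 guides against mock (squares) and mock against Renilla (triangles), with 95% intervals. Short ticks give each guide against Renilla. The circles and squares of Dusp1, Dusp5 and Dusp6 are filled, past an adjusted p of 0.05. All triangles are open, and their intervals and those of the other 4 genes cross 0.

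Guide by guide against the shared Renilla libraries, Dusp5 was called higher with each of the 4 guides, Dusp1 with 3 and Dusp6 with 1. With e12.3 only Dusp5 was called, at a log2 fold change of 0.95 (limma adjusted p = 0.0008405), while Dusp1 had 0.99 (0.07636) and Dusp6 0.99 (0.1319). With libraries weighted by quality Dusp1 (0.005967) and Dusp6 (0.002459) were called with e12.3 too. These weights also called far more of all genes with e12.3, as counted below, so the added calls do not single out these genes. The unweighted call is 1 of 7 genes, where 3.03% of all genes were called higher and 0.173% lower. With e12.4 Dusp1 had 1.26 (adjusted p = 0.01162) and Dusp5 1.08 (0.0001323), which is 2 of 7 where 5.57% were called higher and 1.52% lower. With e20.1 Dusp1 had 1.23 (0.016) and Dusp5 1.10 (0.0001582), 2 of 7 where 4.61% were called higher and 1.06% lower. With e21.1 Dusp1 had 1.64 (0.00126), Dusp5 1.37 (9.818e-06) and Dusp6 1.29 (0.01742), 3 of 7 where 7.06% were called higher and 2.45% lower. No feedback gene was called lower with any guide. Dusp6 did not pass with e12.4, at 0.81 (0.1582), or with e20.1, at 0.60 (0.3539), but was called with both under quality weights (0.0002925 and 0.0001766). With e12.4 and e20.1 too the weights called far more of all genes, so this does not make up for the missed calls. Single libraries decided several of these calls: Dusp1 lost its call with e12.4 without Renilla replicate 1 (adjusted p = 0.0504) or 2 (0.057), and with e20.1 without e20.1 replicate 2 (0.053) or 3 (0.055) or Renilla replicate 1 (0.061) or 2 (0.077). Dusp6 lost its call with e21.1 without e21.1 replicate 3 (0.087) or Renilla replicate 2 (0.077) or 3 (0.067).

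A difference between guides was tested directly as e20.1 and e21.1 against e12.3 and e12.4, guides grouped by the start of their names. Of 11550 genes 0 were called by limma (background 0%), with 179 at an unadjusted p under 0.05. Dusp5 averaged 4.72 ± 0.777 FPKM with e20.1 and 5.92 ± 0.874 FPKM with e21.1, against 4.17 ± 0.536 FPKM with e12.3 and 4.63 ± 0.609 FPKM with e12.4 (SD, n = 3 each). Its log2 difference was 0.22 (interval 0.01 to 0.43, limma adjusted p = 0.9997). For Dusp1 it was 0.31 (interval -0.11 to 0.74) and for Dusp6 0.04 (interval -0.44 to 0.52), and no feedback gene passed the adjusted threshold between the pairs.

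Dusp2 (chromosome 2, 127336159 to 127338376, plus strand) encodes a nuclear phosphatase of ERK and p38 found mainly in blood cells. It ranged over 6.19, 7.79 and 11.6 FPKM with the guides (lowest, median and highest of 12), with 7.98, 7.23 and 8.04 FPKM in Renilla and 6.72, 7.15 and 7.02 FPKM in mock. Guide libraries lay on both sides of the controls, with 5 of 12 above every control library. The log2 fold change against Renilla was 0.04 (interval -0.26 to 0.35, limma adjusted p = 0.8905). Dusp4 (chromosome 8, 34807297 to 34819894, plus strand), another inducible nuclear phosphatase, was close to absent. It was at most 0.0531 FPKM in any library, an estimated 25 reads over the 12 guide libraries, 15 over mock and 5 over Renilla, and no difference of guide from Renilla libraries was seen by the exact two-sided permutation test (p = 1).

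Spry2 (chromosome 14, 105891947 to 105896819, minus strand), a membrane-associated inhibitor of receptor tyrosine kinase signalling, was the most abundant feedback gene in both controls. It ranged over 6.81, 8.74 and 15.6 FPKM with the guides (lowest, median and highest), with 10.8, 8.97 and 7.98 FPKM in Renilla and 10.2, 10.1 and 8.79 FPKM in mock. The groups overlapped, and the 2 guide libraries above every control were the replicates 3 of e12.3 at 14.3 and e21.1 at 15.6 FPKM. The log2 fold change against Renilla was -0.00 (interval -0.42 to 0.41, limma adjusted p = 0.9942), and -0.15 without those libraries (adjusted p = 0.3847).

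Spry1 (chromosome 3, 37639947 to 37644598, plus strand), of the same family, was low. It ranged over 0.226, 0.457 and 2.45 FPKM with the guides, with 0.485, 0.215 and 0.301 FPKM in Renilla and 0.477, 0.311 and 0.319 FPKM in mock. The replicates 3 of e12.3 (2.45) and e21.1 (2.01) were far above the other 16 libraries, which ended at 0.753 FPKM. The difference of mean log2 values, guides minus Renilla, was 0.30 (exact two-sided permutation p = 0.2703) and 0.11 without the pair (exact permutation p = 0.3007). As for Dusp4, this test exchanged single libraries and did not keep the guides apart. Spry4 (chromosome 18, 38586247 to 38601415, minus strand) was at the limit of detection. An estimated 4 reads fell over the 12 guide libraries, 3 over mock and 0 over Renilla, where 0 reads allow up to 0.00617 FPKM by counting error alone.

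Spred1 (chromosome 2, 117121374 to 117182279, plus strand) and Spred2 (chromosome 11, 19924375 to 20024026, plus strand) encode the membrane proteins that recruit neurofibromin to RAS. Spred1 ranged over 2.83, 4.40 and 6.70 FPKM with the guides (lowest, median and highest), with 5.32, 4.21 and 3.94 FPKM in Renilla and 5.86, 4.05 and 5.58 FPKM in mock. Spred2 ranged over 2.65, 6.07 and 10.4 FPKM with the guides, with 6.54, 4.87 and 6.18 FPKM in Renilla and 8.85, 5.88 and 6.80 FPKM in mock. In both genes the groups overlapped. Log2 fold changes against Renilla were -0.00 for Spred1 (interval -0.39 to 0.39, limma adjusted p = 0.9934) and 0.02 for Spred2 (interval -0.52 to 0.56, limma adjusted p = 0.98). Changes of less than about these intervals could not be seen with 3 Renilla libraries.

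The order of levels differed between guide and control libraries. In the guide libraries Dusp1 came first at 10.8 ± 3.92 FPKM, before Spry2 at 9.43 ± 2.75, Dusp2 at 8.16 ± 1.73, Spred2 at 6.22 ± 2.17, Dusp5 at 4.86 ± 0.909, Spred1 at 4.56 ± 1.21 and Dusp6 at 4.42 ± 1.88 FPKM (SD, n = 12). Neighbours in this order differed by less than the larger of their SDs. In Renilla Spry2 came first at 9.24 ± 1.42 FPKM, then Dusp2 at 7.75 ± 0.456, Spred2 at 5.86 ± 0.882, Spred1 at 4.49 ± 0.731, Dusp1 at 3.77 ± 1.14, Dusp6 at 1.81 ± 0.912 and Dusp5 at 1.66 ± 0.0866 FPKM (SD, n = 3). In Renilla, Spred1 and Dusp1, and Dusp6 and Dusp5, differed by less than the larger SD of the pair, and the other neighbours named by more. In mock too, Dusp1 came after Spry2, Spred2, Dusp2 and Spred1. Spry1, Dusp4 and Spry4 were the 3 lowest in every one of these groups.

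The feedback genes also varied between libraries of a group, and the 8 of them above 0.1 FPKM were all higher in the replicates 3 of e12.3 and e21.1. Relative to the mean of the other 2 libraries of its group, on the log2(FPKM + 1) scale, Spry1 was 1.31 higher in e12.3 replicate 3 and 1.08 higher in e21.1 replicate 3. Spry2 was 0.85 and 0.87 higher in these libraries, in the same order, and Dusp6 0.98 and 0.73 higher. Dusp5 moved least of the 8 genes, at 0.25 and 0.23. Other genes moved with them: the mean over neutrophil genes was 1.84 and 1.32 higher, that over ATF4 stress genes 1.09 and 1.05 higher, that over ERK-induced genes 0.27 and 0.46 higher, and that over RAS-MAPK core genes 0.21 and 0.17 higher. Mast cell, basophil and eosinophil genes differed by -0.68 and -0.80, erythroid and megakaryocyte genes by -0.73 and -0.75, and monocyte and macrophage genes by -0.58 and 0.04. The part of these differences in the feedback genes' values was not tested, and the 3 calls of the 4 guides against Renilla were present without the 2 libraries. There 1268 of all 11550 genes were called higher and 817 lower.

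**Figure D4:**
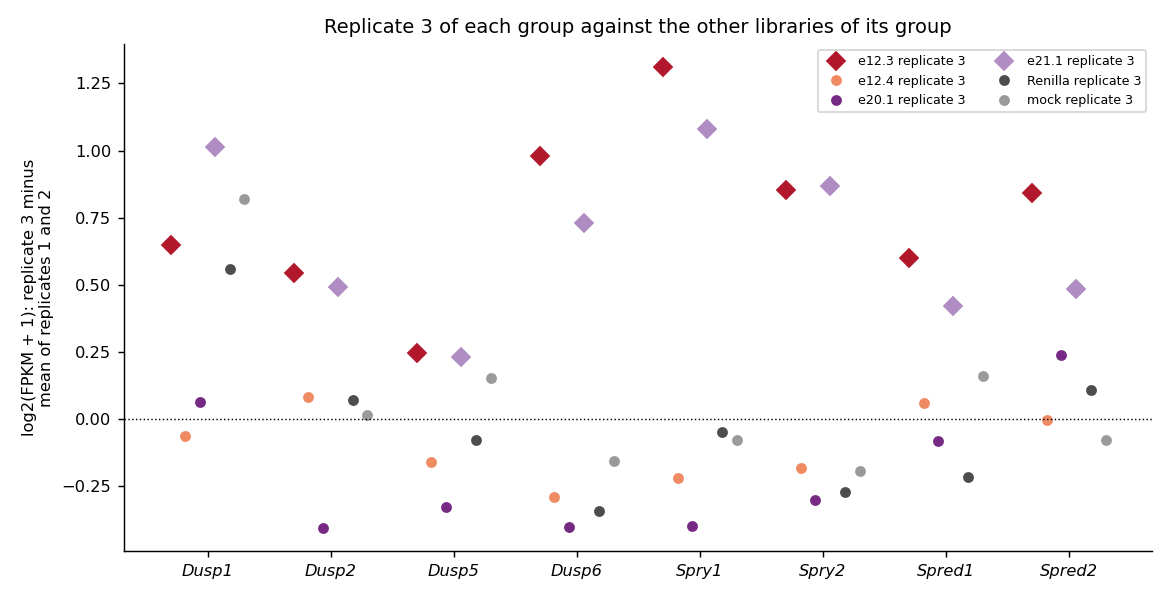
Log2(FPKM + 1) of replicate 3 of each group minus the mean of its replicates 1 and 2, for 8 feedback genes (Dusp4 and Spry4 were too low to plot). Diamonds mark e12.3 and e21.1, which are above 0 for all 8 genes, while the replicates 3 of the other 4 groups lie on both sides of 0 over the genes.

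Pearson correlations of log2(FPKM + 1) over the 18 libraries describe which genes went together, and the points share groups and library effects. Dusp1 and Dusp5 had r = 0.92 over the libraries and 0.44 once group means were taken away. Spred1 and Spred2 had 0.92, and 0.91 once group means were taken away. Dusp6 with Spry2 had 0.52 over the libraries, and 0.86 with group means away. The latter includes the replicates 3 of e12.3, where Dusp6 was 0.98 and Spry2 0.85 above the other libraries of the group, and of e21.1 (0.73 and 0.87). For this pair r was not computed without those libraries.

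Outside the list, the genes most like Dusp1 over the 18 libraries were Fos (r = 0.981), Jun (0.963) and Zfp36l1 (0.952). Fos and Jun encode the subunits of the AP-1 factor. With group means away Dusp1 kept r = 0.954 with Fos and 0.981 with Jun. Those most like Dusp5 were Egr1 (0.984), which encodes an early response zinc finger factor, Ypel3 (0.981) and Napsa (0.981). Dusp5 and Egr1 had r = 0.749 with group means away and 0.01 over the 6 control libraries, where Egr1 was under 1 FPKM. Those most like Dusp6 were Slc25a15 (0.957), Lrrc8b (0.956) and Scarb2 (0.953). For genes that did not pass the test, the nearest were Fam220a (0.887), Cenpv (0.850) and Hist1h2bk (0.846) to Dusp2, and Nucb2 (0.945), Mex3c (0.933) and Myo18b (0.927) to Spry2. They were Slc39a8 (0.941), Kif16b (0.934) and Fam120a (0.930) to Spred1, and Abcc4 (0.943), Fam120a (0.941) and Nf2 (0.934) to Spred2.

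**Figure D5:**
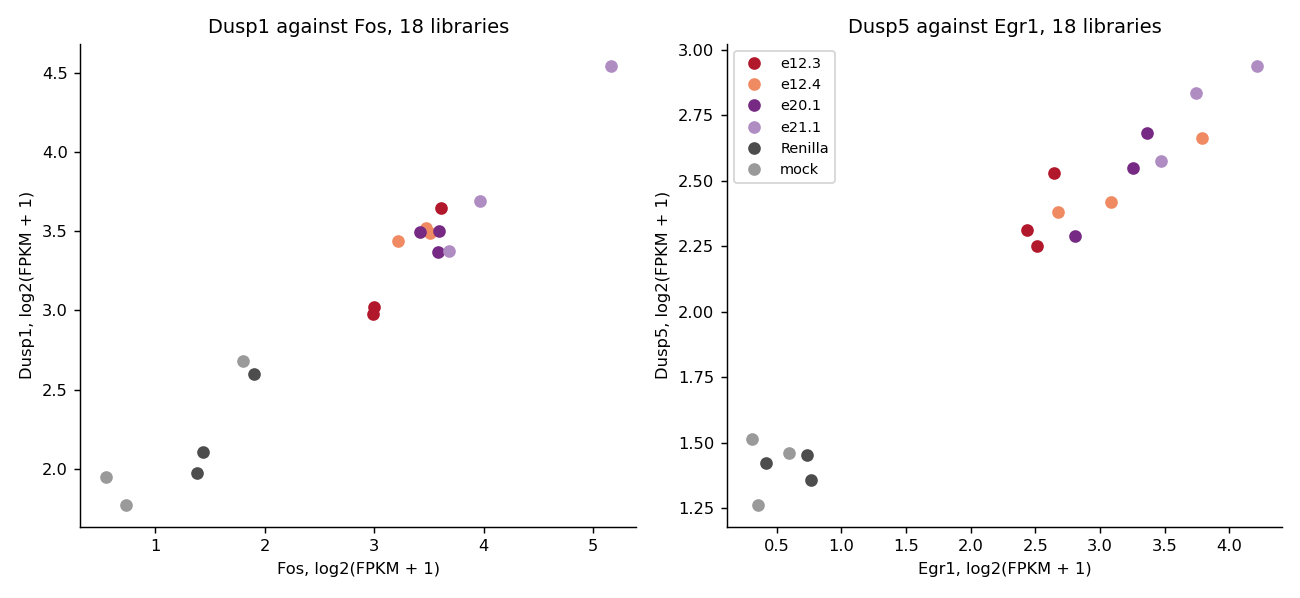
Log2(FPKM + 1) of Dusp1 against Fos (left) and of Dusp5 against Egr1 (right) in the 18 libraries, coloured by group. Guide libraries lie at the upper right and control libraries at the lower left in both panels, with e21.1 replicate 3 highest on every axis.

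Other genes of the pathway were counted for the 4 guides against Renilla, beside the same 7.77% higher and 3.21% lower over all genes. Their lists too were made with earlier results of these data known. Of 13 tested among 17 genes known to be induced by ERK, 8 were higher and 0 lower, with a median log2 fold change of 0.48. Egr1, Fosb and Phlda1 averaged under 1 FPKM in the controls and so passed the filter only through the guide libraries. They hold 2 of the 8 calls, and the other 10 genes 6 higher and 0 lower. Egr1 was at 8.67 ± 4.03 FPKM with the guides and 0.567 ± 0.201 FPKM in Renilla (log2 fold change 2.53, limma adjusted p = 4.819e-07). Ier3, an early response survival gene, was at 18.9 ± 5.88 FPKM with the guides and 5.96 ± 0.628 FPKM in Renilla (1.48, adjusted p = 9.499e-06). Fos, nearest to Dusp1, had 12.2 ± 7.42 FPKM with the guides and 2.01 ± 0.621 FPKM in Renilla (2.03, limma adjusted p = 0.0001211). Without the replicates 3 of e12.3 and e21.1 the count was again 8 higher and 0 lower. Over all 11550 genes the calls rose without them, from 897 to 1268 higher and from 371 to 817 lower.

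Of the other MAP kinase phosphatases, 4 of 8 were tested and 1 was higher. This was Dusp7, a cytoplasmic ERK phosphatase close to Dusp6, at 10.2 ± 1.32 FPKM with the guides and 5.07 ± 0.979 FPKM in Renilla (log2 fold change 0.88, limma adjusted p = 0.0001169). Spry3 and Spred3 were both under the filter. Of 14 other negative regulators, Rasal3 at 0.67 and Rasa3 at 0.21 were higher and Rasa2 at -0.65 was lower, all 3 encoding RAS GTPase-activating proteins. Of 17 core genes from adaptor to ERK, Ksr1, a scaffold of the kinases, was higher at 0.83 and Mapk3, which encodes ERK1, at 0.65, and the phosphatase gene Ptpn11 was lower at -0.27. The median over the core genes was 0.02. Of the 8 tested of 10 p38 and JNK kinase genes 0 were called by limma, with 1 at an unadjusted p under 0.05. Without the replicates 3 of e12.3 and e21.1, the phosphatases had 1 higher and 1 lower, the negative regulators 3 higher and 2 lower, the core genes 3 higher and 1 lower, and the p38 and JNK genes 0 called. These counts stand beside 1268 higher and 817 lower of all 11550 genes without those libraries, up from 897 and 371.

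Genes that mark myeloid cell types moved with the guides too. Monocyte and macrophage markers, 8 genes summed, held 144 to 321 FPKM in the guide libraries, against 70.3 to 73.5 FPKM in mock and 63.5 to 73.5 FPKM in Renilla, and 6 of 7 tested were higher and 0 lower. Ctss, a lysosomal protease gene, had a log2 fold change of 3.34 and Csf1r, the receptor for the macrophage growth factor, 1.94. The 10 leukaemia cell markers summed to 2357 to 5362 FPKM with the guides. In mock they summed to 5021 to 5216 FPKM and in Renilla to 4734 to 5457 FPKM. Of these markers 3 were higher, led by Csf2rb at 1.20 and Ptprc at 0.37, and 3 lower, led by Mpo at -2.09 and Ctsg at -1.03. Without the replicates 3 of e12.3 and e21.1 the guide libraries summed to 2357 to 3571 FPKM, below every control library, with 4 genes higher and 5 lower. Of all 11550 genes, 1268 were called higher and 817 lower without those libraries. Of the neutrophil genes 5 of 7 were tested, and Mmp8 at 1.93 and Ngp at 1.41 were higher, Mmp8 having passed the filter only through the guide libraries. Their sum was 103 to 911 FPKM with the guides, against 85.2 to 113 FPKM in mock and 99.5 to 184 FPKM in Renilla. The 7 tested of 8 ATF4 stress genes had 0 higher and 0 lower by limma, 1 of them at an unadjusted p under 0.05, with a median of -0.29. Without the replicates 3 of e12.3 and e21.1, 0 were higher and 5 lower, with a median of -0.59, beside the same 1268 and 817 over all genes. By limma 0 were called among 5 mast cell, basophil and eosinophil genes (3 at an unadjusted p under 0.05, and 1 lower without those libraries), and 0 among 2 erythroid and megakaryocyte, 1 lymphoid and 1 stromal and endothelial genes tested (0 at an unadjusted p under 0.05). Cd3e, Pax5, Col1a1 and Cdh5 each averaged under 0.1 FPKM. The part of the monocyte, neutrophil and leukaemia cell markers in the values of Dusp1, Dusp5 and Dusp6 was not tested.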

How the data were processed

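The authors deposited FPKM values per gene, in a table of 23899 genes for 18 libraries. The 15 separate tables, also FPKM, differed from it by at most 3.3e-06. The submitters' processing notes name bcl2fastq 2.22.0.422, Salmon 0.13.0, R 3.5.3, DESeq2 1.22.1 and mm10 without their roles. Per the labels' protocols, TRIzol RNA was poly(A) selected and made into directional NEBNext libraries.

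Values were taken as log2(FPKM + 1). The test was limma-trend (R 4.3.3, limma 3.58.1) on 6 group means, for genes averaging 1 FPKM or more, with Benjamini-Hochberg adjustment over all 11550 genes and calls at an adjusted p under 0.05. FPKM are not counts, so no count test was run. Genes under the filter had an exact two-sided permutation test, which exchanged single libraries without regard to guide. Depth was estimated from FPKM steps in 1480 genes with 1 annotated transcript of 2000 bases or more. Of low values, 85.6 to 90.6% per library were within 0.1 reads of a whole number, where an even spread gives 20.0%. Coordinates came from GENCODE vM21, and promoters from RefSeq. Tables used Python 3.11.15 with pandas 2.3.3, numpy 2.4.6, scipy 1.17.1 and matplotlib 3.10.9. Members and gene lists were chosen with earlier results of these data known. The 10 genes and Jmjd1c were always named. From other lists, up to 2 called genes per direction with the smallest p were named, and for likeness the 3 genes with the highest r. Alternatives covered the pseudocount, filter, scaling, replicate block, array weights, groups fitted, controls and libraries left out, and those of the permutation test were chosen after seeing the data. Reads were not analysed here.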

Additional observations from a re-analysis of the deposited data

How the results depend on the processing

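Against Renilla, Dusp1 and Dusp5 were called with the 4 guides in 28 of 28 alternatives (log2 fold changes 1.14 to 1.47 and 1.04 to 1.47) and Dusp6 in 24 of 28. Among these alternatives, the stricter filter kept genes with at least 5 FPKM in 3 libraries. Dusp1, Dusp5 and Dusp6 passed it only through the guide libraries, so its calls lend no support. The highest control library had 1.86 FPKM of Dusp5 and 2.86 FPKM of Dusp6. For Dusp1, only the replicates 3 of Renilla (5.06 FPKM) and mock (5.41 FPKM) reached 5 FPKM among the controls. Dusp6 missed with no filter (0.922, adjusted p = 0.0635), without guide e21.1 (0.801, 0.074), and without Renilla replicate 2 or 3. Leaving out 1 library gave 0.783 to 1.175 for Dusp6, and for the number of feedback genes called 2 to 3 with the 4 guides against Renilla or mock and with e21.1, 1 to 2 with either e20.1 or e12.4, and 1 to 1 with e12.3. The 3 genes under the filter were not called in any alternative.

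The feedback genes that were not called ranged from -0.148 to 0.218 over the alternatives, were called in none, and changed sign in places. The 0.218 was Spred2 with array weights. With upper-quartile scaling Spry2 was 0.011 and Spred1 0.010. With array weights Spred1 was 0.103. Without the replicates 3 of e12.3 and e21.1 Dusp2 was -0.042 and Spred2 -0.094. Without guide e12.3 Spred2 was -0.037, without e12.4 Spry2 was 0.025 and Spred1 0.024, without e20.1 Spry2 was 0.018 and Spred1 0.045, and without e21.1 Dusp2 was -0.006 and Spred2 -0.024. With Renilla and mock as 1 control Spred2 was -0.106. Leaving out 1 library gave -0.001 to 0.093 for Dusp2, -0.095 to 0.101 for Spry2, -0.076 to 0.101 for Spred1 and -0.092 to 0.108 for Spred2. Upper-quartile scaling moved the median of all genes by 0.015.

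Counts over all genes moved more, and the cause was not tested. With the 4 guides against Renilla 1268 genes were called, 4864 with array weights, 2085 without the 2 replicates 3, 2109 with Renilla and mock together, and 814 to 1502 without 1 library. Against mock 1040 were called, 3493 with weights, 1878 without the 2 libraries and 580 to 1273 without 1 library. With e12.3 the 370 genes became 2027 with weights, 709 without the 2 libraries and 80 when only its own groups were fitted. With e12.4 the 819 became 3908, 1542, and 491 to 638 without 1 library. With e20.1 the 656 became 3393, 1290, 431 with only its groups and 400 to 519. With e21.1 the 1098 became 2641 with weights, 332 with only its groups and 779 to 1026. The 0 of mock against Renilla became 1 with no filter, 6 with weights and 4 with only its groups. The 0 between guide pairs became 1 with no filter, 1 with weights, 1 without the 2 libraries and 0 to 1 without 1 library.

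The labels share replicate numbers between groups without saying that they pair libraries. Of 45 same-number pairs 26 had r over 0.1 (-0.25 to 0.76), and 17 of 18 libraries correlated best with their own number, a hint of pairing from the data. All 3 pairs were over 0.1 for e12.4 with Renilla (0.24 to 0.33) and for mock with Renilla (0.16 to 0.29), where the block changed no feedback gene call. The same held for e12.4 with mock (0.20 to 0.23) and for e12.3 with e21.1 (0.45 to 0.76). The 0.76 was between the replicates 3 that stood apart. With the replicate block 3 feedback genes were again called with the 4 guides against Renilla. With e12.3 2 were called under the block, Dusp1 (adjusted p = 0.00989) and Dusp5, and 3 with array weights, against 1. Array weights also called far more of all genes with e12.3, as given above. The number over all genes with e12.3 under the block is not given here. All genes called were 989 with e20.1 and 1652 with e21.1 under the block.

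Depth is estimated and not recorded, with 3 libraries per group. Dusp4 and Spry4 lay near the limit of detection, so changes in them were not detectable. Reads of genes with several transcripts were shared out by an estimate.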
